A study of Mus musculus with 4 samples.

Results

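Lung RNA of allergen-challenged mice was compared between an array labelled Pla2g3-/- and an array labelled Pla2g3+/+. The comparison used these 2 of the 4 arrays in the series, chosen by their genotype and treatment labels, and is given as the KO-labelled array minus the WT-labelled array. By the labels, mice were immunised with 10 µg ovalbumin and 1.3 mg alum in 0.2 ml saline on days 0 and 14. They then breathed 1% ovalbumin aerosol for 30 min a day on days 26, 27 and 28. Whole lungs were collected 48 h after the last exposure, and RNA from 4 samples was pooled for each array, of which 200 ng was labelled. The other 2 arrays carry the same genotype labels and the treatment label of a control, and since every group carries 1 protocol text in the labels, what the control mice received was not given in the sources used here. Strain, sex, age, how the deletion was made and which exons it removed were likewise not given there. Each group had 1 array, so no difference below has a replicate error or a p-value. What is given in its place, for the genes the results turn on, is the scanner's own error of a spot, a second probe that disagrees, or the same difference between the control arrays.

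Pla2g3 encodes group III secreted phospholipase A2, an enzyme of the bee venom family that releases fatty acids and lysophospholipids from membrane phospholipids. It has been linked to the maturation of mast cells through prostaglandin D2. In the ovalbumin model, type 2 cytokines drive eosinophil influx, mucus production by goblet cells and antibody production, with chemokines and lipid mediators recruiting further leukocytes.

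The values came in 2 sources that carry the same sample names, the scanner files and the authors' value table, and they were kept apart throughout. A level is the log2 signal, and 0 is the 75th percentile of the array in the scanner files and a signal of 1, close to the column's 75th percentile, in the table. Levels were scaled separately in each source, so a level set across sources is a description. The KO-labelled minus WT-labelled difference did not track between the sources across 23769 genes measured in both (Pearson r = -0.0093, Spearman rho = -0.021, a description without a test, since genes share the arrays). The defining lung genes also differed in level between the sources. Sftpc, the surfactant protein of alveolar type 2 cells, had levels of 7.04 (WT-labelled) and 7.02 (KO-labelled) in the table but -0.66 and -0.26 in the scanner files. Ager, a marker of alveolar type 1 cells, stood at 3.60 and 3.67 in the table and at -5.34 and -5.01 in the scanner files. Krt5, a keratin of basal cells, stood at -3.82 and -4.15 in the table and at 5.68 and 5.43 in the scanner files. The thyroid gene Tg was at -0.96 and 0.30 in the scanner files, against -4.37 and -4.49 in the table. Other lung markers were bright in both: the surfactant protein Sftpa1 stood at 5.97 and 6.08 in the table and at 4.70 and 5.09 in the scanner files, and the club cell protein Scgb1a1 at 6.77 and 6.84 and at 7.88 and 7.67. The markers thus split in the scanner files, with Sftpc and Ager below the 75th percentile and Sftpa1, Scgb1a1 and the basal cell keratin above it. Between the 2 challenged arrays, alveolar genes as a list had a median difference of 0.06 in the table (0 of 20 at least 2-fold higher or lower) and 0.05 in the scanner files (1 higher and 1 lower of 19).

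The target gene was measured first, as the gene that the genotype labels name. Pla2g3 has 2 probes on the array, and a further probe is named after transcript ENSMUST00000044682, described in the files as weakly similar to a group III secreted phospholipase A2. On mm9 all 3 lie on the plus strand of chromosome 11: probe A at 3393127 to 3393186, probe B at 3394109 to 3394168 and the third at 3399294 to 3399353. Exon or UTR positions on this build were not available in the sources used here. The first 30 of the 60 bases of each, as the files give them, are shown since the reading of the labels rests on these probes:
Pla2g3 probe A: ctgcaagtaacccaggcaatctggagacgc
Pla2g3 probe B: aggagtaaatgaattaatcaacacacatac
ENSMUST00000044682 probe: aaatttcaggttgatgccctaaacatttct

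Pla2g3 signal was high, not low, on the arrays labelled knockout. In the table, probe B had levels of -4.66 (WT-labelled control), -0.20 (KO-labelled control), -4.60 (WT-labelled challenged) and 0.06 (KO-labelled challenged). That is a difference of 4.66 in the challenged pair, 25.4-fold, and 4.46 in the control pair. In the scanner files the same probe had levels of -3.05, 0.14, -2.83 and 1.07 in that order, a challenged difference of 3.90 (spot error 0.20), 14.9-fold. Both KO-labelled arrays were high and both WT-labelled arrays low in both sources. Probe A gave a challenged difference of 3.88 (14.8-fold) in the table and 4.56 (spot error 0.30, 23.5-fold) in the scanner files. The ENSMUST00000044682 probe gave 5.53 (46.1-fold) in the table and 2.94 (7.65-fold) in the scanner files. Whether the probes lie in the deleted part was not given, so they can neither bear out nor refute a deletion elsewhere in the gene. The signal was higher under the knockout label, and whether the labels are right was not tested. The arrays are thus named by label only (KO-labelled, WT-labelled), and the sign of each difference depends on those labels being right.

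**Figure D1:**
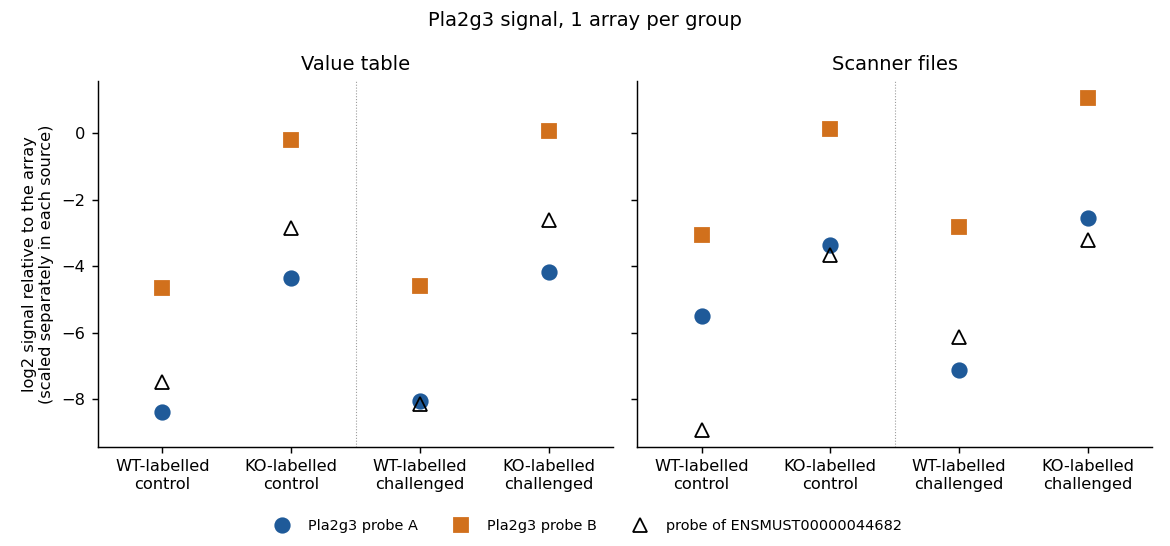
Levels (log2 signal relative to the array, vertical axis) of the 3 probes for Pla2g3 or its similar transcript in the 4 groups (horizontal axis), in the value table (left) and the scanner files (right); each point is 1 array. All 3 probes were higher on both KO-labelled arrays in both sources, for probe B by 4.66 in the table and 3.90 in the scanner files among the challenged arrays.

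Genes above background on at least 1 challenged array were counted as different from 2-fold upward. Where a gene was at background on 1 array, the background limit of that array stood in for any level under it, which makes the difference a lower bound. A level above that limit was used as measured. Of 25401 genes in the table, 1064 passed (4.19%), 436 higher (1.72%) and 628 lower (2.47%) on the KO-labelled array. In the scanner files 1656 of 25750 passed (6.43%), 994 higher (3.86%) and 662 lower (2.57%). The control pair, which shares no array with the challenged pair, gave 979 of 25458 in the table (3.85%, with 1.52% higher and 2.33% lower) and 1322 of 25627 in the scanner files (5.16%, with 3.24% higher and 1.92% lower). The median difference over all genes was 0.01 in the table and -0.05 in the scanner files. Most of the called genes were dim: the brighter of their challenged arrays lay below the median level for 83.5% of the higher and 70.2% of the lower genes in the table, and for 73.3% and 83.4% in the scanner files. The KO-labelled challenged array had a higher median of its negative control spots in the scanner files (2.62 against 1.90 intensity units) and fewer spots above background (79.2% against 81.9%), and the part of this in the counts was not tested. Restricted to genes at or above the median level, a limit added after seeing the data, the counts were 259 in the table and 375 in the scanner files. With normexp background correction and quantile normalization the scanner count was 482.

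How far the genotype difference was shared with the control arrays differed between the sources. In the table, 158 of the 436 higher genes (36.2%) and 341 of the 628 lower genes (54.3%) were also at least 2-fold different the same way in the control pair. The same held for 219 of 994 higher (22.0%) and 124 of 662 lower genes (18.7%) in the scanner files. Genes at least 2-fold different in the opposite direction in the control pair were fewer, at 4 and 17 in the table and 50 and 44 in the scanner files. Across genes, the challenged and control differences had r = 0.64 in the table (24599 genes) and r = 0.30 in the scanner files (24939 genes). The points share their arrays, so these are descriptions.

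**Figure D2:**
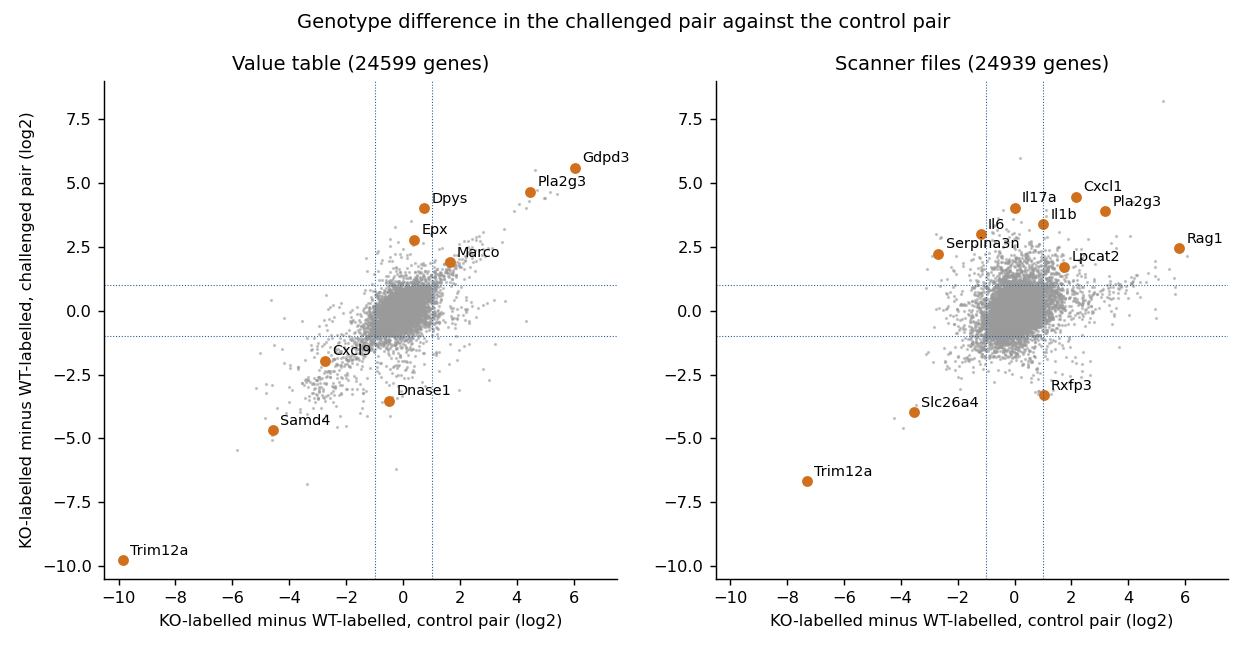
Each grey point is 1 gene: its KO-labelled minus WT-labelled log2 difference in the control pair (horizontal) and in the challenged pair (vertical), for the value table (left) and the scanner files (right); dotted lines mark 2-fold and orange points are named genes. Gdpd3, Pla2g3 and Trim12a lie far from 0 in both pairs of the table, whereas Dpys (4.02) and Epx (2.78) in the table and Il17a (4.03) in the scanner files differ chiefly in the challenged pair.

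In the table, the genes furthest higher on the KO-labelled challenged array were mostly also higher on the KO-labelled control array. Gdpd3, a glycerophosphodiester phosphodiesterase that makes lysophosphatidic acid, had levels of -3.09, 2.94, -3.08 and 2.52 (WT-labelled control, KO-labelled control, WT-labelled challenged, KO-labelled challenged). Its challenged difference of 5.61 is 48.7-fold, and both KO-labelled arrays were high. The scanner files did not show it (-0.08). The liver-type protease inhibitors Serpina1a, Serpina1c, Serpina1d and Serpina1e were 4.42 to 4.70 higher by their brightest probes, with other probes from 1.83 (Serpina1e) and 2.64 (Serpina1a) to 5.58 (Serpina1d). They are near-identical copies whose probes may cross-hybridise, so they count as 1 uncertain signal. Psca, a surface antigen of epithelial cells, was 4.29 higher, the lens chaperone Cryaa 3.91 and the matrix protein Tnn 3.22. Of the 12 highest genes, 10 were also at least 2-fold higher in the control pair, counting Pla2g3 and each Serpina1 copy separately. The 2 without such a difference were Dpys, an enzyme of pyrimidine breakdown (challenged levels -7.67 and -3.65, control difference 0.74; a second probe gave -1.17), and the olfactory receptor Olfr215 (challenged levels -8.26 and -4.73, control difference 0.29). Both were dim on the WT-labelled array, and in the scanner files they were at -1.27 (Dpys) and -0.26 (Olfr215).

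Among genes lower on the KO-labelled array of the table, Trim12a, a member of the TRIM antiviral protein family, stood apart. Its levels were 1.76, -8.10, 1.73 and -8.16, the last of these not above background, so that it was at least 872-fold lower on the KO-labelled challenged array. Samd4, an RNA-binding translational repressor, had levels of -0.32, -4.89, -0.41 and -5.10, a difference of -4.69 (25.8-fold lower). Camk2b, a calcium-dependent kinase, had a difference of -3.35, and B3gnt3, a glycosyltransferase of mucin-type glycans, -3.14. Of the 12 lowest genes, 10 were also at least 2-fold lower in the control pair. Dnase1, a secreted nuclease, was the lowest without one, with levels of -7.16 and -7.64 in the controls and -4.14 and -7.67 in the challenged arrays.

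Immunoglobulin and T-cell receptor probes made up a large share of the genes lower in the table. Of 226 antigen receptor probes, 143 were at least 2-fold lower and 0 higher, with a median difference of -1.67, against a background of 2.47% of genes lower. Those on chromosome 12, which holds the heavy chain locus, had 58 of 68 lower (median -2.70), and those on chromosome 6, with the kappa light chain and T-cell receptor beta loci, 72 of 94 (median -1.94). On chromosome 14, with the T-cell receptor alpha and delta loci, 3 of 44 were lower. The median over all of them was the same size in the control pair (-1.67). These probes share sequence with one another, so they are not independent. Jchain, which joins IgA and IgM subunits, followed them with levels of 4.68, 2.51, 4.53 and 2.31, a challenged difference of -2.22. Mzb1, a chaperone of plasma cells, was at -1.25 and the plasma cell receptor Tnfrsf17 at -1.15. As a list, B and plasma cell genes had 3 of 19 members lower and 0 higher, 18 of 19 below 0 and a median of -0.41 (control pair -0.54). In bulk RNA, fewer cells of a type and less RNA per cell cannot be told apart. The receptor probes lay the other way in the scanner files, with 45 of 189 higher and 8 lower (median 0.29), and Jchain was 2.03 higher.

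Some eosinophil and mucus genes were higher on the KO-labelled challenged array of the table. Of 15 eosinophil genes, summing to 5.74 and 6.09 on the WT-labelled and KO-labelled challenged arrays (log2), 5 were at least 2-fold higher and 0 lower, with a median of 0.34 against 0.01 over all genes, while in the control pair the list's median was -0.19 with 0 higher and 1 lower. Epx, the eosinophil peroxidase, was at -8.41 and not above background on the WT-labelled challenged array and at -5.52 on the KO-labelled one, at least 6.86-fold higher. Cebpe, a transcription factor of granulocyte maturation, had challenged levels of -1.39 and -0.04, a difference of 1.36. Alox15, a lipoxygenase of eosinophils and macrophages, had challenged levels of -3.48 and -2.28, a difference of 1.20. Siglecf, a lectin of eosinophils and alveolar macrophages, differed by 0.02. Rnase2b, a relative of the list member Rnase2a but outside the list, lay the other way. Its challenged levels were -4.22 and -8.14, the latter not above background, so that it was at least 14.2-fold lower. In the control pair its difference was a bound of -1.44. The scanner files had 2 of 13 eosinophil genes past 2-fold, both of them higher (median 0.55). Red cell genes lay the same way in the table, with 12 of 13 above 0, 2 past 2-fold higher and 0 lower (Ahsp, a haemoglobin chaperone, at 1.56 and Hbb-b2 at 1.41) and a median of 0.38 (control pair 0.04). Their summed level was 7.76 and 8.17 on the WT-labelled and KO-labelled challenged arrays. Gata1, counted with the eosinophil genes at 1.06, is also a red cell factor. Cell cycle genes had 26 of 29 above 0 and 0 past 2-fold (median 0.28, control pair -0.16, summed levels 5.12 and 5.39). The part of either list in the eosinophil values was not tested.

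Of 23 mucus and goblet cell genes in the table, 4 were at least 2-fold higher and 0 lower, against 1.72% and 2.47% of all genes. In that list 18 lay above 0 and the median was 0.49 (control pair 0.09). Retnlb, a secreted goblet cell protein, had levels of -7.69, -6.06, -3.57 and -1.93, so that it was higher on both challenged arrays than on both controls and 1.64 higher on the KO-labelled one. Agr2, a disulphide isomerase needed for mucin folding, had levels of -1.76, -0.79, 0.16 and 1.57, a difference of 1.41. Itln1 differed by 1.08 (control pair 1.23). Differences of this size were thus also present between the control arrays for Retnlb (1.63) and Itln1, and for Agr2 the control difference was 0.98. The same list had 0 higher and 2 lower of 23 in the scanner files, one of them the anion exchanger Slc26a4, whose levels there were -2.74, -6.28, 1.88 and -2.09. Slc26a4 was the lowest ranked gene of the scanner files (-3.97, spot error 0.20, 15.7-fold lower), with -3.54 in the control pair. In the table it was 0.62 higher.

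T cell and dendritic cell genes were lower in the table by small amounts that were also seen in the controls. Of 25 T cell genes, 24 lay below 0 with a median of -0.56, though 0 reached 2-fold, and the median in the control pair was -0.58. Cd3e, a chain of the T-cell receptor complex, had levels of 0.68, -0.11, 0.86 and 0.03. Of 20 dendritic cell genes, 4 were at least 2-fold lower and 0 higher (median -0.53, control pair -0.84). Among them Xcr1, the receptor of cross-presenting dendritic cells, was at -1.36 and Bst2, abundant in plasmacytoid cells, at -1.23. Bst2 was lower in the scanner files too (-0.80, control pair -0.97), where the dendritic list had a median of 0.81. It lies on chromosome 8 at 74058603, near Tmem221 (74078681), which was lower in both pairs of both sources. Fat cell genes in the table had 3 of 15 members lower and a median of -0.51, against 0.44 in the control pair, with the brown fat gene Ucp1 at -5.39 and -7.79. Heart muscle genes had a median of -0.40, against 0.69 in the control pair. The summed level of the fat cell list was 4.64 and 4.39 on the challenged arrays and that of the heart muscle list 6.13 and 5.92 (log2, WT-labelled then KO-labelled), and the part of these tissues in other differences was not tested.

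The largest scanner difference above background on both arrays was in a gene known only by a clone name, 2210407C18Rik, with levels of -7.20, -1.97, -6.72 and 1.49 (8.20, 295-fold; control pair 5.23). It was 1.04 higher in the table. Inflammatory genes were frequent among the named genes furthest higher. Of 36 chemokines and chemokine receptors, 26 were at least 2-fold higher on the KO-labelled challenged array and 0 lower, 34 lay above 0 and the median was 1.62, against 3.86% of genes higher and a median of -0.05 over all genes. In the control pair, 7 of 34 were at least 2-fold higher and 1 lower, with a median of 0.15. With background correction by normexp and quantile normalization the challenged median was 0.96. Under that setting 47 ranked scanner genes changed in size and 10 did not. Cxcl1, a neutrophil chemoattractant, had levels of -6.33, -4.17, -4.88 and -0.41, so that the KO-labelled challenged array stood above the other 3 by a wide margin. Its difference was 4.47 (spot error 0.21, 22.2-fold), with 2.16 in the control pair. Cxcl3 was 3.93 higher and Cxcl2 3.70 higher, and both bind the receptor Cxcr2, itself 2.39 higher. Cxcl5, of the same group, was bright on both challenged arrays (3.87 and 5.63) and low on both controls (-3.06 and -0.93). The monocyte chemokines Ccl7 and Ccl2 were 2.99 and 2.38 higher, and Ccl17, which draws type 2 helper cells, was 2.90 higher. Ccl24, an eosinophil chemoattractant, was 1.57 higher.

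Inflammatory cytokines in the scanner files had 12 of 23 members higher and 0 lower, with a median of 1.00 (control pair 0.04). Il17a, the cytokine of type 17 helper cells, had levels of -6.50, -6.49, -5.62 and -1.58, a difference of 4.03 (spot error 0.22, 16.4-fold) with 0.01 in the control pair. Il1b, a product of activated myeloid cells, had levels of -3.21, -2.21, -0.99 and 2.40, a difference of 3.40 (10.5-fold). Il6 was 3.01 higher, the dendritic cell cytokine subunit Il12b 2.85, the granulocyte growth factor Csf3 2.75 and Ifng 2.18. The type 2 list had 7 of 18 members higher and 0 lower (median 0.87). In the control pair it had 4 of 14 higher and 1 lower (median -0.12). Its members Il9 and Tslp were above background on the KO-labelled array only of the challenged pair. In this list Il5, the eosinophil growth factor, had challenged levels of -4.92 and -2.52, and Il13, which drives mucus production, -5.49 and -3.03. Both were not well above background on the control arrays. In the table Il13 differed by 0.97. For each cytokine named here the KO-labelled challenged array was the highest of the 4.

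Neutrophil genes lay the same way in the scanner files: 12 of 21 were at least 2-fold higher and 0 lower, with a median of 1.30, where 3.86% of all genes were higher and 2.57% lower. In the control pair 4 of 21 were higher and 0 lower (median 0.36). S100a8, an abundant neutrophil calcium-binding protein, had levels of 0.22, 1.16, 1.88 and 3.97, and S100a9 was 1.74 higher. The collagenase Mmp8 was 2.01 higher and the chemotactic peptide receptor Fpr1 2.75 higher. The summed level of the neutrophil list was 8.12 on the WT-labelled and 8.31 on the KO-labelled challenged array (log2), and 7.90 and 7.86 on the controls. Macrophage genes (7 of 19 higher, median 0.77) and dendritic cell genes (5 of 19 higher, median 0.81) lay the same way. Mefv, Clec4e and Acod1, genes of activated myeloid cells, were 3.12, 3.18 and 3.36 higher. Immediate early and heat shock genes, which respond to stress and handling, also lay higher on that array, with 21 of 26 above 0, 4 past 2-fold higher and 0 lower, and a median of 0.56 (control pair -0.33). Among them Egr2 was at 2.60, Fosl1 at 1.71, Egr1 at 1.45 and Atf3 at 1.18, while the list's summed level was 7.54 and 7.48 on the WT-labelled and KO-labelled challenged arrays. The part of leukocyte numbers or of these stress genes in the cytokine and chemokine differences was not tested.

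Lymphoid genes also differed in the scanner files, with larger medians between the controls. T cell genes had 10 of 25 higher and 1 lower, with a median of 0.97 in the challenged pair and 2.72 in the control pair. Immature thymocyte genes had 8 of 15 higher and 0 lower, 15 of 15 above 0 and medians of 1.18 and 4.42. Rag1, the recombinase of developing lymphocytes, had levels of -4.37, 1.43, -4.95 and -2.51, highest on the KO-labelled control array. The summed level of the thymocyte list was 0.38 and 1.35 on the challenged arrays and 0.79 and 5.0 on the controls (log2, WT-labelled then KO-labelled). Thyroid and parathyroid genes had 2 of 13 higher and 1 lower (median 0.58), with summed levels of 1.98 and 2.38 on the challenged arrays. Their defining marker Tg was 1.26 higher and Pth, the parathyroid hormone, 1.56 higher on the KO-labelled challenged array. The part of thymus or thyroid tissue in the other differences was not tested.

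Of the inflammatory genes named from the scanner files, Ccl24 (1.68), Il5 (1.05) and Csf3 (at least 1.02) were also past 2-fold higher in the table, and Il13 (0.97) was just short of it. There the chemokine list had 1 of 36 higher and 5 lower (median -0.21), inflammatory cytokines 1 of 25 higher and 5 lower (median -0.06) and neutrophil genes 0 of 21 in either direction (median -0.06). Cxcl1 had table levels of -3.76 and -3.80 on the challenged arrays, Il1b -0.10 and -0.11, and Il6 -3.42 and -3.61. Il17a had a table difference of -1.53 (levels -5.76 and -7.28), Cxcl9, an interferon-induced chemokine, -1.96 (0.18 and -1.78) and Ccl17 -1.17 (2.91 and 1.75). Il12b (-2.14), Ifng (-1.26), Cxcl10 (-1.06) and Ccl22 (-1.09) were likewise past 2-fold lower in the table, against 2.85, 2.18, 2.13 and at least 2.30 in the scanner files. For all 7 genes the sources gave opposite directions. The control pair of the table was also lower for Cxcl9 (-2.74), Il12b (-2.41), Ccl17 (-1.72), Ccl22 (-1.58), Il17a (-1.23) and Ifng (-0.72). In that pair the chemokine list had 5 of 36 higher and 10 lower (median -0.34). Inflammatory cytokines there had 0 of 23 higher and 4 lower (median -0.12).

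**Figure D3:**
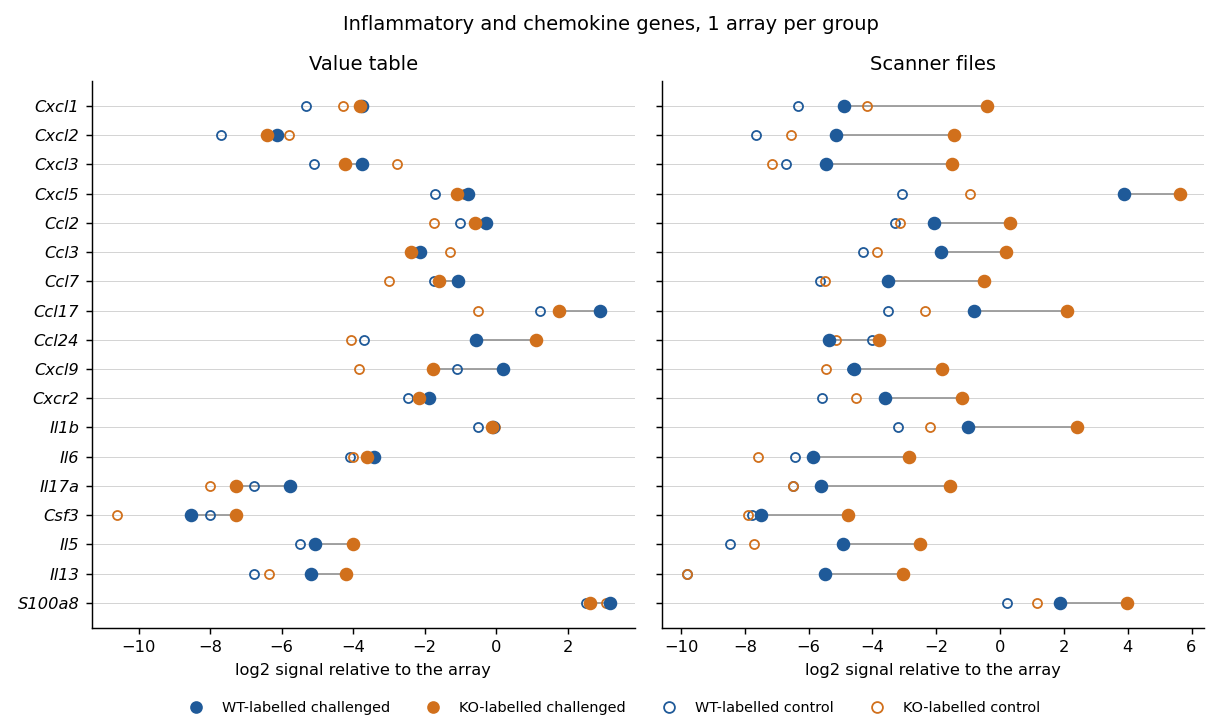
Levels (log2 signal relative to the array, horizontal axis) of 18 chemokine, cytokine and leukocyte genes on the 4 arrays, in the value table (left) and the scanner files (right); filled points are challenged and open points control arrays, blue WT-labelled and orange KO-labelled, and each point is 1 array. In the scanner files the KO-labelled challenged array is the higher of the challenged pair for every gene drawn, and in the table the pair lies close together for Cxcl1 (-3.76 and -3.80) and Il1b (-0.10 and -0.11).

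**Figure D4:**
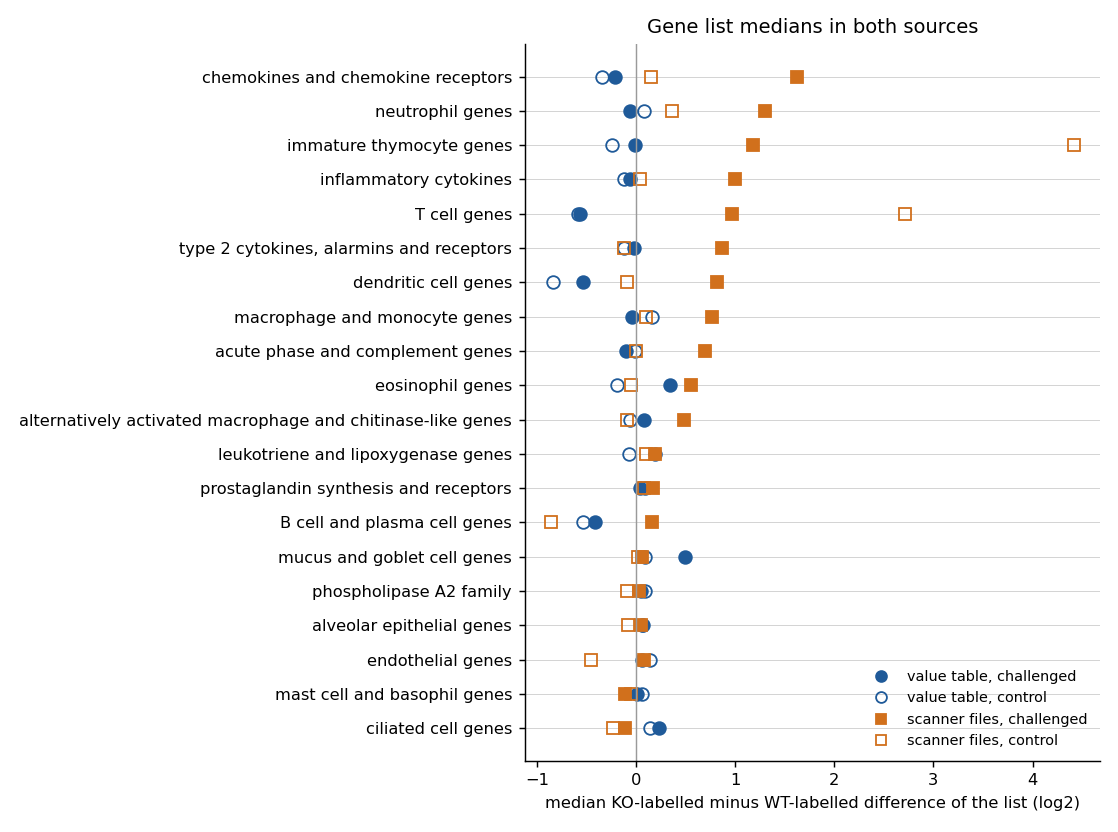
Median KO-labelled minus WT-labelled log2 difference (horizontal axis) of 20 gene lists (vertical axis), filled for the challenged and open for the control pair, blue circles for the value table and orange squares for the scanner files. Chemokines (1.62), neutrophil genes (1.30) and inflammatory cytokines (1.00) lie to the right in the scanner files only, and T cell and thymocyte genes lie further right in the control pair (2.72 and 4.42).

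Across both sources, 100 of 24060 genes (0.416%) passed 2-fold with the same sign, 43 higher (0.179%) and 57 lower (0.237%). With opposite signs there were 122 (0.507%), of which 0.187% were higher in the table and lower in the scanner files and 0.32% the reverse. Genes with opposite signs thus outnumbered those with the same sign. The shared genes made up 13.4% of the higher genes of the table that were measured in both sources (43 of 321) and 5.69% of those of the scanner files (43 of 756). For lower genes the shares were 11.9% (57 of 477) and 11.4% (57 of 499). Of the shared genes, 9 higher and 14 lower ones were also at least 2-fold different the same way in both control pairs.

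Lipid enzymes were among the higher shared genes. Lpcat2, which makes platelet-activating factor, had levels of -4.56, -2.78, -4.38 and -2.61 in the table and -2.04, -0.29, -2.36 and -0.63 in the scanner files. Its differences lay between 1.73 and 1.78 in both pairs of both sources, high on each KO-labelled array. Its list, of lysophospholipid and platelet-activating factor genes, had 1 of 24 higher in the table and 4 of 24 in the scanner files, with 0 lower. Beside each lipid list stand the shares over all genes. They were 1.72% higher and 2.47% lower in the table, and 3.86% and 2.57% in the scanner files. Pla2g4c, a cytosolic phospholipase A2, had levels of -7.88, -7.26, -5.51 and -3.68 in the table and -6.86, -3.30, -2.83 and -0.35 in the scanner files. It was thus highest on the KO-labelled challenged array in both, by 1.83 and 2.47. Of the phospholipase A2 family, 2 of 25 members were past 2-fold higher and 1 lower in the table (median 0.05), and 2 of 24 higher and 0 lower in the scanner files (median 0.03). The higher ones were the target Pla2g3 itself and Pla2g4c in both sources. The lower one, Pla2g4d, had challenged levels of -5.22 and -7.55 in the table and -6.36 and -6.86 in the scanner files. Receptors and enzymes of prostaglandins had 0 of 24 past 2-fold in the table and 4 higher and 1 lower of 23 in the scanner files, where Ptgs2, the inducible cyclooxygenase, was 1.63 higher. In the table Ptgs2 differed by 0.48. Of the leukotriene and lipoxygenase genes, 1 of 18 was higher and 1 lower in the table and 2 of 18 higher in the scanner files. The 2 that passed in the table were Alox15 (1.20) and Cysltr2, a cysteinyl leukotriene receptor (-1.83, control pair -2.12). Mast cell and basophil genes had 0 members past 2-fold in either source (18 and 19 genes, medians 0.01 and -0.12). The prostaglandin D2 synthases Ptgds and Hpgds differed by 0.11 and -0.06 in the table and by 0.56 and 0.63 in the scanner files.

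Arg1 and Cd209e, from the list of alternatively activated macrophage genes, were also shared. So were Marco, Ccl24 and Il5, which are outside that list. Arg1, the arginase of such cells, was 1.38 higher in the table (challenged levels -2.29 and -0.91) and 2.15 higher in the scanner files (-4.75 and -2.61). Marco, a scavenger receptor of alveolar macrophages, was 1.90 and 2.58 higher. Cd209e, a C-type lectin, was 1.11 and 1.75 higher. Ccl24, produced by such cells, was 1.68 and 1.57 higher, and Il5 was 1.05 and 2.40 higher. For Arg1 and Marco the control pair of the table already differed by 1.58 and 1.64, and for Marco that of the scanner files by -1.37. The whole list of alternatively activated macrophage genes had 3 of 20 higher in the table (median 0.08) and 6 of 19 in the scanner files (median 0.49), with 0 lower in each.

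Several shared genes differed in the same direction in the challenged and control pairs of both sources. Zfp963, a zinc finger protein, was 2.62 and 2.43 higher (table, then scanner files) and 2.78 and 2.35 higher between the controls. Ocel1 was 2.09 and 1.67 higher by its brighter probe, but its other probe, made to a separate cDNA, gave -2.86 and -2.91. Trim12a was at least 872-fold and at least 103-fold lower by its brighter probe, while its other probe gave measured differences of -6.09 and -3.63, and the related Trim34a was at -2.54 and -1.29 by its brighter probe and at 0.08 and -0.61 by its other one. B3gnt3 was at -3.14 and -1.72, the transmembrane gene Tmem221 at -2.92 and -1.63 and the protease inhibitor Serpina9 at -2.82 and -1.88. Pttg1, the securin of mitosis, was at -1.39 and -1.87. By chromosome, 13 shared genes lay on chromosome 8 (1.12% of the 1164 measured there) and 13 on chromosome 11 (0.727% of 1787), against 0.416% in all. Chromosome 14 held 9 (0.975% of 923) and chromosome 12 held 8 (0.850% of 941). Several of those on chromosome 12, which holds the heavy chain locus, lay between 114525496 and 116733989. Several on chromosome 14 were clone, accession or predicted names between 42737009 and 45310204. Such neighbours were counted separately in these shares. Without antigen receptor probes, 94 genes were shared in all, 43 higher and 51 lower. On chromosome 8, 7 of the 13 were also shared by both control pairs. Several of the 13, among them Zfp963, Ocel1, Tmem221 and B3gnt3, lay between 71827057 and 77308677. Capns2 and Lpcat2 lay between 95425807 and 95443160. These neighbours were likewise counted separately. Within 10 Mb of Pla2g3 on chromosome 11, 3 of 113 genes in the table (2.65%) and 6 of 118 in the scanner files (5.08%) were past 2-fold, against 4.19% and 6.43% over all genes. Pla2g3 and the ENSMUST00000044682 probe were left out of the counts for this stretch only. The adenylate cyclase Adcy1, higher in both (2.49 and at least 1.32), lay within that stretch. So did Camk2b, lower in the table (-3.35, control pair -3.30). On chromosome 14, antigen receptor probes left out, 10.9% of genes were past 2-fold in the table and 10.8% in the scanner files, the highest shares of any chromosome in each source.

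Many of the lowest scanner genes shared a short stretch of probe sequence. Among the 12 lowest, 5 had probes holding the letters CCCTAAC and 8 a rotation of the 6 letters CCCTAA, against 0 of the 12 highest. The string was noticed after the values were seen, so these counts are a description. Over all 25529 scanner genes it was in 46 probes (0.180%), of which 14 (30.4%) were at least 2-fold lower and 1 higher. It was found in 2.11% of the lower genes and in 0.101% of the higher ones. The rotations were in 4.78% of all genes, 10.4% of the lower and 4.23% of the higher ones, and they overlap CCCTAAC. On the other strand, GTTAGGG was in 1 of the 662 lower genes. In the table CCCTAAC was in 3 of 628 lower genes (0.478%) and in 0.179% of all. Stretches of 30 bases from 6 such probes are printed 5′ to 3′ because they carry this pattern, with the string in capitals:
Rxfp3: aggaaaagaaaCCCTAACtaggacatgctc
Oxct2b: gtgaccttaattaaaaaCCCTAACctgaaa
Wfdc6b: gggaaCCCTAACaacttcgaatctaaagct
Neurod2: ttcaCCCTAACacgaatctccgcgtttttt
Angptl7: taacccattttCCCTAACtgaggcttagat
Wfdc6a: caagggaaCCCTAACaacttcccatctgaa

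On mm9 these probes lie at chromosome 15, 10963477 to 10963536 (Rxfp3), chromosome 4, 122795186 to 122795243 (Oxct2b) and 147869984 to 147870043 (Angptl7), chromosome 2, 164442886 to 164442945 (Wfdc6b) and 164405788 to 164405847 (Wfdc6a), and chromosome 11, 98187943 to 98188002 (Neurod2). The probes of Oxct2b and Wfdc6b are on the plus strand and the others on the minus strand, and exon or UTR positions were not given in the sources used here. The probes of the related inhibitors Wfdc6a and Wfdc6b share the letters around the string and are not independent. Rxfp3, a relaxin family receptor of the brain, had scanner levels of -5.85, -4.83, -4.11 and -7.41, highest on the WT-labelled and lowest on the KO-labelled challenged array. Its second probe, without the string, differed by -0.30. Neurod2, a neuronal transcription factor, had -5.82, -5.22, -4.18 and -6.97, and Oxct2b, a ketone body enzyme of testis, -5.21, -4.31, -3.56 and -6.72. The 14 genes were picked for being at least 2-fold lower on the KO-labelled challenged array. Their median levels, in the same order of arrays, were -5.32, -4.74, -3.95 and -6.29. Over all 46 genes with the string the medians were -3.05, -2.86, -2.68 and -3.17, with a median challenged difference of -0.33. With normexp and quantile normalization the difference of Rxfp3 was -1.42 instead of -3.30. Leaving out probes with any rotation, the scanner count was 1545 instead of 1656. What binds these probes was not tested.

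**Figure D5:**
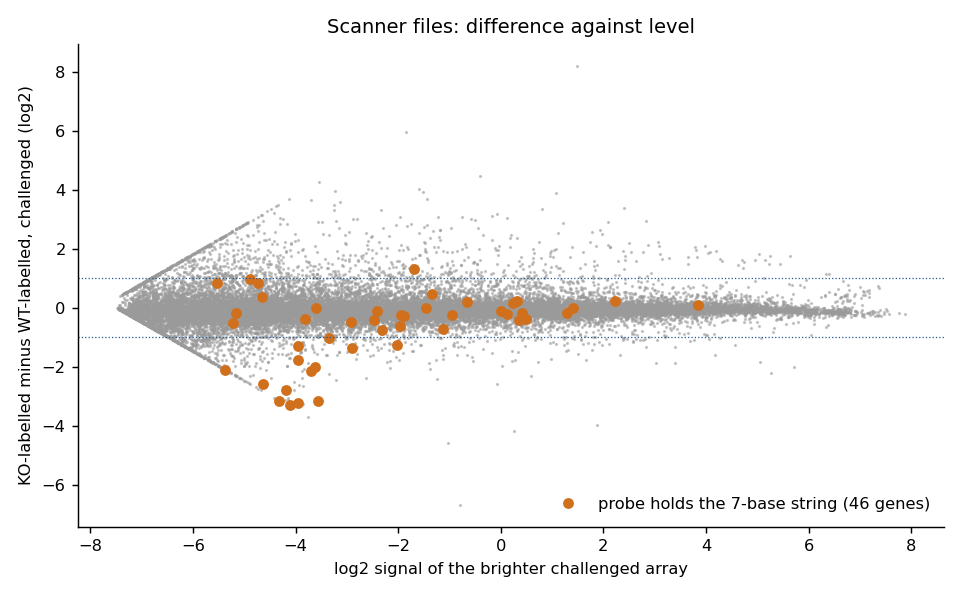
KO-labelled minus WT-labelled log2 difference of the challenged arrays (vertical) against the log2 signal of the brighter of them (horizontal) in the scanner files; each grey point is 1 gene, orange points are the 46 genes whose probe holds the 7-base string, and dotted lines mark 2-fold. Of the 46, 14 lie at least 2-fold below 0, most of them at low signal.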

How the data were processed

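Lung RNA was hybridised to Agilent 1-colour (Cy3) mouse arrays, 1 array per group, with groups taken from the sample titles. Spot intensity was read by Agilent Feature Extraction 11.5.1.1, per the file headers, with trends across the slide removed and the background correction setting at 0. The value table the authors deposited holds a linear signal per probe, with its processing not stated in the labels or headers. Probe positions are on mm9, per the file headers.

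Non-control probes (39429) were named from RefSeq (28324 by accession, 2209 by symbol, 174 by synonym), and 8722 kept the name of the files, for 31044 genes. Spots marked as outliers on any array (336) were left out, which lost 19 probes, and 0 spots were saturated. Scanner signals were taken to log2 minus the array's 75th percentile of non-control spots, and table signals to log2. Repeated spots were averaged, and each gene was read from 1 probe per source, the brightest by mean log2 signal across its 4 arrays. Above background meant the scanner's own call, or in the table more than 5 times the median of the 153 negative control spots, a rule that matched the scanner's call for 99.2% of spots when applied to the scanner files. In a lower bound, a background value under the background limit of its array was raised to that limit. The limit was the lowest signal above background in the scanner files and 5 times the negative control median in the table. The spot error combines the errors the scanner gave for both arrays and covers measurement of the spots only. Probes repeated at least 10 times had a median SD of the challenged difference of 0.05 in the scanner files (331 probes) and 0.04 in the table (340 probes). The number of arrays, 1 per group, limits the precision, and no test was run. The calculation was tested on simulated data with planted differences.

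Named were Pla2g3, the 12 highest and 12 lowest genes of each source above background on both arrays, up to 3 per direction above background on 1 array, up to 15 per direction shared by both sources and up to 4 members of each of 38 gene lists per source; the ranking passed over antigen receptor segments and genes known only by a clone, accession or predicted name. Adcy1, Ager, Ccl2, Cd3e, Csf3, Cxcl5, Cxcl10, Hpgds, Ptgds, S100a8, S100a9, Scgb1a1, Sftpa1, Sftpc, Slc26a1, 2210407C18Rik and the probe of ENSMUST00000044682 fall outside this rule and were chosen after their values were seen. Members and lists were chosen with earlier results of these data known. The alternatives were other normalizations (quantile, the median of common probes, normexp with an offset of 50 in limma 3.58.1), background filters, fold limits, the mean of probes and the other source. Python 3.11.15 was used.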

Additional observations from a re-analysis of the deposited data

Results flagged for a closer look

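For 11 named genes the KO-labelled minus WT-labelled difference lay at least 2-fold on opposite sides of 0 in the challenged and the control pair of a source. With 1 array in each group the difference between the pairs was not tested. In the scanner files 7 of them were higher on the KO-labelled array of the challenged pair and lower on that of the control pair. Among these were Il6 (3.01 against -1.19), Marco (2.58 against -1.37), Serpina3n (2.24 against -2.67) and Ptgs2 (1.63 against -1.14). The rest were Htr2b (1.58 against -1.20), Ccl24 (1.57 against -1.15) and Pth (1.56 against -2.11). Rxfp3 (-3.30 against 1.02), Foxn1, the transcription factor of thymic epithelium (-1.98 against 2.01), and the retinoic acid hydroxylase Cyp26b1 (-1.10 against 1.91) lay the other way. In the table the fibrinogen gene Fgg was at -1.70 in the challenged and 1.06 in the control pair. The value for Foxn1 is a bound, since the KO-labelled challenged array was at background. The control value of Il6 is the measured difference, with the KO-labelled control array at background.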

How the results depend on the processing

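In the table the count of 1064 genes became 2181 with no background filter, 259 among genes at or above the median level, 2438 at 1.5-fold and 512 at 3-fold. In the scanner files the count of 1656 became 2787, 375, 3907 and 635 under the same settings, and 482 with normexp and quantile normalization. The count of 100 genes shared by both sources became 274, 15, 370 and 20. The other settings run (quantile or median scaling, the mean of probes, both arrays above background, without antigen receptor probes, and in the scanner files without probes holding a rotation of CCCTAA or beyond 3 times the spot error) stayed within 1.5 times of each count. The share of higher genes was 41.0% in the table and 60.0% in the scanner files, and it became 27.8% and 70.7% among genes at or above the median level. In the scanner files it was 49.2% with no background filter, so that lower genes were then more numerous (1372 higher, 1415 lower), and 51.4% at 1.5-fold, 69.0% at 3-fold and 69.1% with normexp. The median level limit and both probe exclusions were chosen after seeing the data.

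Among the ranked genes past 2-fold and the lists with a median of at least 0.5 in size, reading a result from the other source turned its sign in the following cases, and the cause was not tested. Of table results, the medians of dendritic (0.81), T cell (0.97) and fat cell genes (0.29) and the differences of Dpys (-1.27), Gdf2 (0.61), Gdpd3 (-0.082) and Olfr215 (-0.26) turned in the scanner files. Of scanner results, the medians that turned in the table were those of type 2 (-0.022), chemokine (-0.21), inflammatory cytokine (-0.059), acute phase (-0.10), immediate early (-0.043), neutrophil (-0.062), macrophage (-0.040), dendritic (-0.53), T cell (-0.56), thymocyte (-0.010) and thyroid genes (-0.12). The scanner genes that turned were Acod1 (-0.97), Clec4e (-0.20), Cxcl1 (-0.042), Cxcl2 (-0.27), Cxcl3 (-0.46), Gal3st2 (0.18), Il17a (-1.53), Il1b (-0.019), Mrgpra5 (-0.98), Mrgpra6 (-0.57), P2rx7 (1.64), Rxfp3 (0.21) and Slc26a4 (0.62). Outside those, the signs also differed between the table and the scanner files for Jchain (-2.22 and 2.03), Cyp26b1 (1.41 and -1.10), the antigen receptor median (-1.67 and 0.29) and the B and plasma cell median (-0.41 and 0.16), and for the genes the report gives with opposite directions. Averaging probes turned Ocel1, whose probes disagree, to -0.38 in the table and -0.62 in the scanner files. With normexp and quantile normalization, 47 ranked scanner genes changed in size and 10 did not, and 8 scanner lists changed and 30 did not. The size of the scanner differences thus depended on how background was handled. No paired analysis was possible because each group had 1 array. Signals near background limit the dim genes, which make up most of the counts.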
